A study of Mus musculus with 12 samples.

Results

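The chemokines Ccl2, Ccl3, Ccl4, Ccl5, Ccl7, Ccl12, Cxcl1, Cxcl9, Cxcl10 and Cxcl16 were followed in bulk RNA-seq of the mouse retina. These 10 genes were listed by name, by no threshold on their values but with earlier results of these data known, from the 25124 genes that the tables list. The 12 libraries form 6 groups of 2, all from wildtype C57BL/6J mice, and every library is the poly(A) RNA of a retina taken on day 2. 3mo IOP and 18mo IOP retinas came from eyes of 3-month-old and 18-month-old mice whose intraocular pressure (IOP) had been raised once to 30 mmHg for 1 h, and 3mo control and 18mo control retinas were untreated contralateral eyes. 4xIOP retinas had the same elevation 4 times, biweekly, in mice labelled 3 months old, with untreated contralateral eyes as 4xIOP control. Every control eye therefore shared an animal with a pressured eye, so that a control is no eye of an untouched mouse, and the labels do not say which eyes came from the same mouse. P-values measure the spread between libraries of a group, estimated jointly over all groups of a fit.

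Chemokines are small secreted proteins that guide leukocytes along a concentration gradient through G protein-coupled receptors. CC ligands such as Ccl2 and Ccl7 act mostly on monocytes, macrophages and T cells, whereas CXC ligands split into neutrophil attractants that act through Cxcr2, such as Cxcl1, and interferon-induced attractants of activated T cells that act through Cxcr3, such as Cxcl9 and Cxcl10. In the retina, microglia, Müller glia, astrocytes and endothelial cells can all make them, and many are controlled by NF-kB, interferon signaling and rapid decay of the mRNA.

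The members lie in clusters of mm10. On chromosome 11, Ccl2 (82035577-82037452) is 8259 bases from Ccl7 (82045712-82047523) and Ccl12 lies at 82101845-82103399, all on the plus strand. A second cluster of that chromosome holds Ccl5 (83525779-83530518, minus strand), Ccl3 (83647843-83649378, minus strand) and Ccl4 (83662584-83664683, plus strand), with 13205 bases between Ccl3 and Ccl4. Cxcl16 is apart from both at 70455189-70459984 on the minus strand, where it overlaps Zmynd15 on the opposite strand. The counting was strand-specific. Chromosome 5 holds Cxcl1 (90891245-90893115, plus strand), Cxcl9 (92321331-92328079) and Cxcl10 (92346639-92348889), the last 2 on the minus strand. All are protein-coding, and their counted transcripts are short, from 526 bases for Ccl5 to 2899 bases for Cxcl9.

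RefSeq promoter sequences (GRCm38.p6) were at hand for 5 of the 10 members, and 3 are shown because their transcripts had large fold changes and because the searched motifs differ between them. Each is the 250 bases before the gene's start, 5′ to 3′ on the gene's strand, for Cxcl10 at chr5:92348890-92349139, for Cxcl1 at chr5:90890995-90891244 and for Ccl3 at chr11:83649379-83649628. Capitals mark matches to the NF-kB consensus (kappaB), to the interferon-stimulated response element (GAAA, any 2 bases and again GAAA) and to the AP-1 site TGANTCA, searched on both strands.
Cxcl10: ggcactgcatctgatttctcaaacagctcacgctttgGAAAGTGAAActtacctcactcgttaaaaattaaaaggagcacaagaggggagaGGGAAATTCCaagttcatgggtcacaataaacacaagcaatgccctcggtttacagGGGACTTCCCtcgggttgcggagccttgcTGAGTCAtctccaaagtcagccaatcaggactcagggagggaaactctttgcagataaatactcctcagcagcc
Cxcl1: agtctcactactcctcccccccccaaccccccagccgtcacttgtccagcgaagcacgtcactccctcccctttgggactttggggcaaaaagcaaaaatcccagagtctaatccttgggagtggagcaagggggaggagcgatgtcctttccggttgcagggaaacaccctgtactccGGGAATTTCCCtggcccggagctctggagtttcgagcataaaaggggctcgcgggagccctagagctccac
Ccl3: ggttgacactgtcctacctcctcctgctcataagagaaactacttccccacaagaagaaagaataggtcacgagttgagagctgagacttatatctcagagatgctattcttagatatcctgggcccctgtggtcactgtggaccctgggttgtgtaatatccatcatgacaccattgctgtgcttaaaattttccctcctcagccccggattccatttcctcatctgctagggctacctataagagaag
Cxcl10 holds 2 kappaB matches (GGGAAATTCC and GGGACTTCCC), the interferon-stimulated element (GAAAGTGAAA) and an AP-1 match (TGAGTCA). Cxcl1 holds a kappaB match (GGGAATTTCC) that overlaps a match on the other strand (GGAATTTCCC). Ccl3 has none of these letters in the window, nor have Ccl12 and Cxcl9, and none of these 5 members has the gamma-activated sequence TTCNNNGAA. Of 32851 mouse promoters of the same length, 3.90% hold a kappaB match, 2.98% the interferon-stimulated element, 6.75% the AP-1 site and 7.02% the gamma-activated sequence. In the 3′ UTR, the ATTTA pentamer of unstable mRNAs occurs in 9 of 10 members, all but Ccl5, and in 64.6% of genes with a 3′ UTR of similar length. The nonamer ATTTATTTA occurs only in Cxcl1, with 2 copies, and in 4.34% of those genes.

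Depth was between 39766247 and 59455042 tags per library, of which 44.2% to 71.5% fell in exons. FPKM is the number of tags scaled to the transcript's length and to the tags of the library, so that genes can be compared in level. A library with 0 tags of a gene allows up to 3, which is 0.0535 to 0.0800 FPKM for Cxcl1 and 0.0643 to 0.0961 FPKM for Ccl3, and such limits cover counting error only. Folds against a group at 0 are bounds against that limit in each library. Rod markers summed to between 4351 and 22804 FPKM over the libraries. They were lower in 4xIOP (4351 to 6562 FPKM) than in its control (8904 to 9289 FPKM), and in 18mo IOP (11202 to 13256 FPKM) than in 18mo control (14784 to 16518 FPKM), with no rod marker called in either. Transcript length weighed on the 3mo libraries: the median FPKM of transcripts under 1000 bases was 1.89 and 4.70 times that of transcripts of 4000 bases or more in 3mo control 1 and 2, against 1.20 to 1.36 times in the 18mo libraries. The members' calls in both age comparisons are therefore also given with the trend with length removed. In the single-elevation libraries, pigment epithelium markers summed to between 26.9 and 174 FPKM at 3 months and to at most 3.23 FPKM at 18 months, whereas endothelial markers summed to 7.14 to 12.5 and to 48.6 to 70.5 FPKM. In 4xIOP control, also of young mice, the pigment epithelium markers summed to 4.35 to 7.004 FPKM and in 4xIOP to 0.629 to 1.24 FPKM. Between the untreated ages, ganglion cell markers summed to 159 to 180 FPKM in the young and 26.9 to 58.6 FPKM in the old, with 4 of 5 called lower, and Müller glia markers to 490 to 597 and 1068 to 1356 FPKM, with 3 of 5 called higher. The part of these differences in the age comparisons was not tested.

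In untreated young retinas the chemokines were low except Cxcl16, a transmembrane chemokine that also binds oxidized lipids, and Ccl12 came next in 3mo control with 0.816 and 2.48 FPKM. The 10 members summed to 8.10 and 14.1 FPKM in 3mo control, of which Cxcl16 made up 78.2% and 74.8%. In 4xIOP control they summed to 3.09 and 3.36 FPKM with 81.6% and 81.3% from Cxcl16, and only 4 members had any tag in each library. Summed levels were 38.1 and 48.7 FPKM in 3mo IOP, 48.8 and 40.6 FPKM in 18mo control, 125 and 121 FPKM in 18mo IOP, and 30.9 and 32.0 FPKM in 4xIOP. The untreated old and the pressured young retinas thus had sums in the same range as FPKM was given, with no correction for the trend with length, but from different members: Ccl3 made up the largest share in both 18mo control libraries (35.6% and 38.6%), Cxcl16 in 3mo IOP 1 (35.1%, with Ccl12 at 30.6%) and Ccl12 in 3mo IOP 2 (47.7%). In bulk RNA, more cells of a type and more RNA per cell cannot be told apart.

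**Figure D1:**
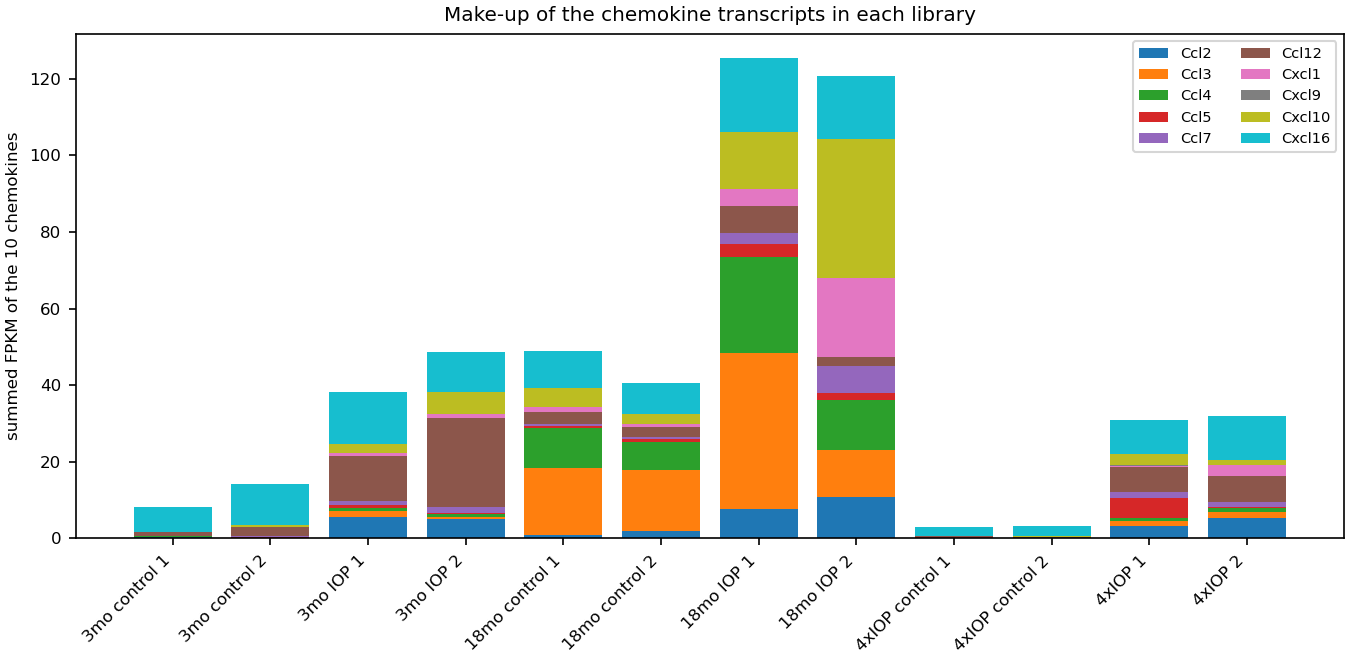
Stacked bars of the FPKM of the 10 chemokines (y axis, linear, from 0) in each of the 12 libraries (x axis, group and replicate). Bars reach 125 and 121 FPKM in 18mo IOP and stay at 3.09 and 3.36 FPKM in 4xIOP control; the first 8 bars and the last 4 come from separately normalized tables.

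The first question was how the chemokines differ between untreated old and young eyes. Ccl3 and Ccl4, typical products of activated microglia and macrophages, differed most. Ccl3 measured 0.215 and 0.0530 FPKM in 3mo control and 17.4 and 15.7 FPKM in 18mo control, a 123-fold higher mean. Ccl4 had 0.0740 and 0 FPKM in the young and 10.6 and 7.54 FPKM in the old libraries, 264-fold by tags (95% exact counting interval 72.6 to 2181, with only 2 tags in the young pair). Neither gene's groups overlapped. The fitted log2 fold changes were 4.76 ± 0.50 (SE, limma adjusted p = 0.00301) for Ccl3 and 4.14 ± 0.31 (adjusted p = 0.00265) for Ccl4.

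Cxcl10 and Ccl2 also rose with age. Cxcl10, the interferon-induced Cxcr3 ligand, had 0.176 and 0.440 FPKM in 3mo control against 4.96 and 2.50 FPKM in 18mo control, a log2 fold change of 2.34 ± 0.51 (adjusted p = 0.0101). Ccl2, the main monocyte attractant, had 0.301 and 0.105 FPKM against 0.911 and 2.08 FPKM, a log2 fold change of 1.45 ± 0.32 (adjusted p = 0.0105). In each case both old libraries lay above both young ones. The Cxcl10 call was lost without 18mo control 1 (adjusted p = 0.0611), and that of Ccl2 without 3mo control 2 (adjusted p = 0.0525) or without 18mo control 2 (adjusted p = 0.0699).

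In all, 4 of 9 members tested were called higher and 0 lower in 18mo control, where 11.6% of the 13731 genes tested were called higher and 11.6% lower. The groups did not overlap for 8 of the 9, all higher in the old, as for 45.7% of all genes (32.8% were separated the other way), and the members' median log2 fold change was 1.45 beside 0.157 over all genes. Cxcl1, a neutrophil attractant, was at 0 in both young libraries and at 1.19 and 0.702 FPKM in the old, at least 13.2-fold higher, but missed the threshold (adjusted p = 0.0593). In a limma fit of only the compared groups Cxcl1 passed (adjusted p = 0.0246). Ccl5, a T cell attractant, and Ccl7, a monocyte attractant like Ccl2, had means 3.67 and 3.34 times as high in the old (adjusted p = 0.0816 and 0.172). Ccl12, the mouse gene closest to Ccl2 in function, had 0.816 and 2.48 FPKM in the young and 3.05 and 2.70 FPKM in the old (adjusted p = 0.266).

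Cxcl16 was alone among tested members in overlapping, with 6.34 and 10.6 FPKM in 3mo control and 9.66 and 8.21 FPKM in 18mo control. With the length trend removed, 8 of 9 members were called higher in the old retinas and Cxcl16 was the exception, while calls of higher genes over all 13731 tested went from 1595 to 1008. Microglial markers summed to 19.8 to 26.6 FPKM in 3mo control and 42.6 to 44.6 FPKM in 18mo control, with 3 of 8 tested markers (Csf1r, Cx3cr1 and Itgam) called higher. Leukocyte markers summed to at most 1.43 FPKM in these 4 libraries, and their part and that of microglia in the result were not tested.

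**Figure D2:**
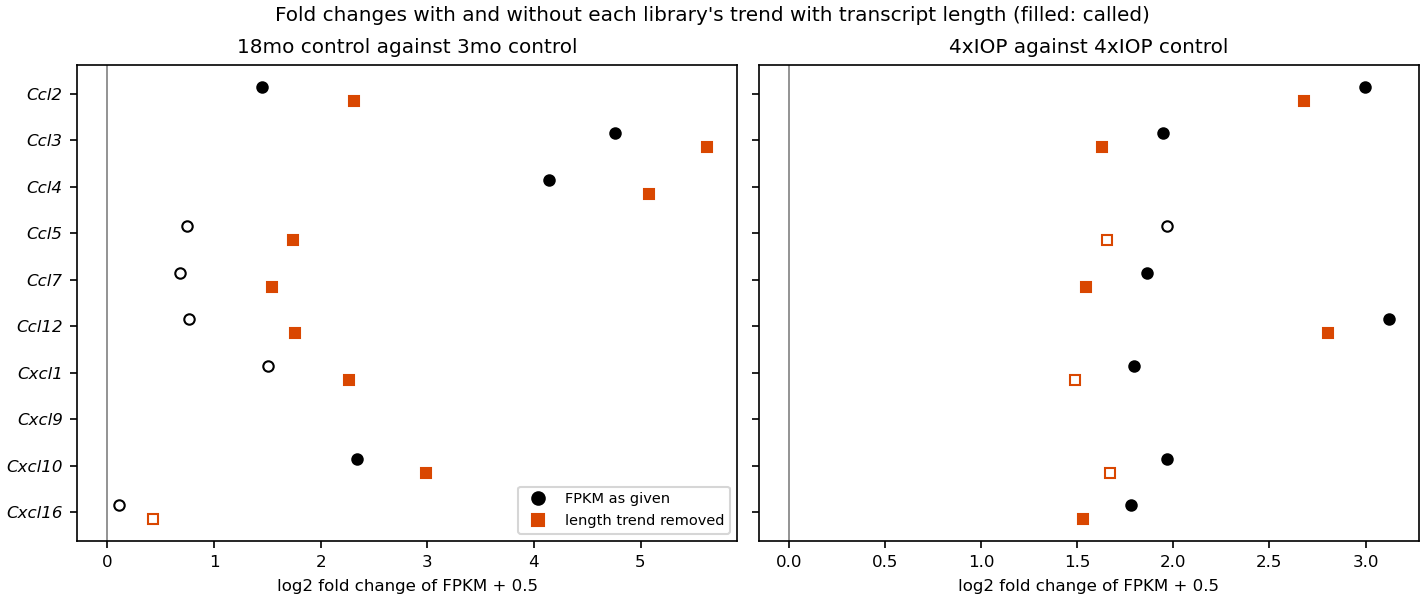
Log2 fold change of FPKM + 0.5 (x axis) for each tested chemokine (y axis), from FPKM as given (black circles) and after removing each library's trend with transcript length (orange squares), with filled symbols for called genes. Removing the trend moved every member up in the age comparison, with 8 called in place of 4, and down in the 4xIOP comparison.

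The next question was the response to a single elevation in young eyes. Ccl2 rose 26.6-fold, from 0.301 and 0.105 FPKM to 5.72 and 5.06 FPKM, with a log2 fold change of 3.08 ± 0.32 (adjusted p = 0.0185). It was the only member called of the 9 tested, in a comparison that called 0.568% of genes higher and 0.00728% lower. Its call was lost on leaving out 3mo control 1 (adjusted p = 0.125), 3mo IOP 1 (adjusted p = 0.130) or 3mo IOP 2 (adjusted p = 0.0620), while the log2 fold change stayed between 3.00 and 3.28. It was also lost with no filter on low values (adjusted p = 0.0623), which leaves the log2 fold change at 3.08, and with voom on recovered reads, where it was 4.61 (adjusted p = 0.116).

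Ccl12 had the highest level of any member in 3mo IOP 2, with 11.6 and 23.2 FPKM in the pressured eyes against 0.816 and 2.48 FPKM in the control eyes. Its log2 fold change of 3.10 ± 0.54 missed the threshold (adjusted p = 0.0571), with a 10.6-fold higher mean, and it was called without 3mo control 2 (adjusted p = 0.0453). Cxcl10 went from 0.176 and 0.440 FPKM to 2.42 and 5.64 FPKM, a log2 fold change of 2.41 ± 0.51 (adjusted p = 0.104). Both genes had a clear gap between their groups.

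The groups did not overlap for 8 of the 9 members, all higher in 3mo IOP, as for 28.6% of genes (3.95% the other way), and 8 had an unadjusted p under 0.05, as had 1169 of all 13731 genes in either direction. Ccl7 had 0 and 0.316 FPKM in control and 1.02 and 1.60 FPKM in pressured eyes (adjusted p = 0.189). Cxcl1 was at 0 in both control libraries and at 0.781 and 0.942 FPKM with pressure, at least 12-fold higher (adjusted p = 0.503). That p used a spread shared with 18mo IOP, where Cxcl1 had 4.38 and 20.6 FPKM. In a limma fit of only the compared groups Cxcl1 was called (adjusted p = 0.0462). Ccl3 reached 1.45 and 0.642 FPKM and Ccl4 0.731 and 0.660 FPKM, both under the levels of untreated old retinas. Ccl5 had 0.183 and 0.159 FPKM against 0.945 and 0.365 FPKM (adjusted p = 0.565). Cxcl16 again overlapped, with 13.4 and 10.5 FPKM under pressure. Microglial markers summed to 34.5 to 40.2 FPKM in 3mo IOP and leukocyte markers to 1.37 to 2.77 FPKM, with no gene of either list called. Astrocyte markers went from at most 3.34 FPKM to between 27.9 and 33.9 FPKM. Most of the latter was Gfap (means of 2.11 and 28.1 FPKM), the only marker of that list called. Aldh1l1 had means of 1.13 and 2.69 FPKM and Pax2 of 0.068 and 0.0845 FPKM. Pigment epithelium markers went from 26.9 to 42.0 FPKM up to 66.4 to 174 FPKM, with none of the 4 tested called. Of these 4, Tyrp1 (means of 7.43 and 53.0 FPKM) and Pmel (5.88 and 51.7 FPKM) were higher in 3mo IOP. Rpe65 (17.9 and 13.0 FPKM) and Lrat (3.13 and 2.10 FPKM) were lower in mean. The part of all these markers in the chemokine values was not tested.

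**Figure D3:**
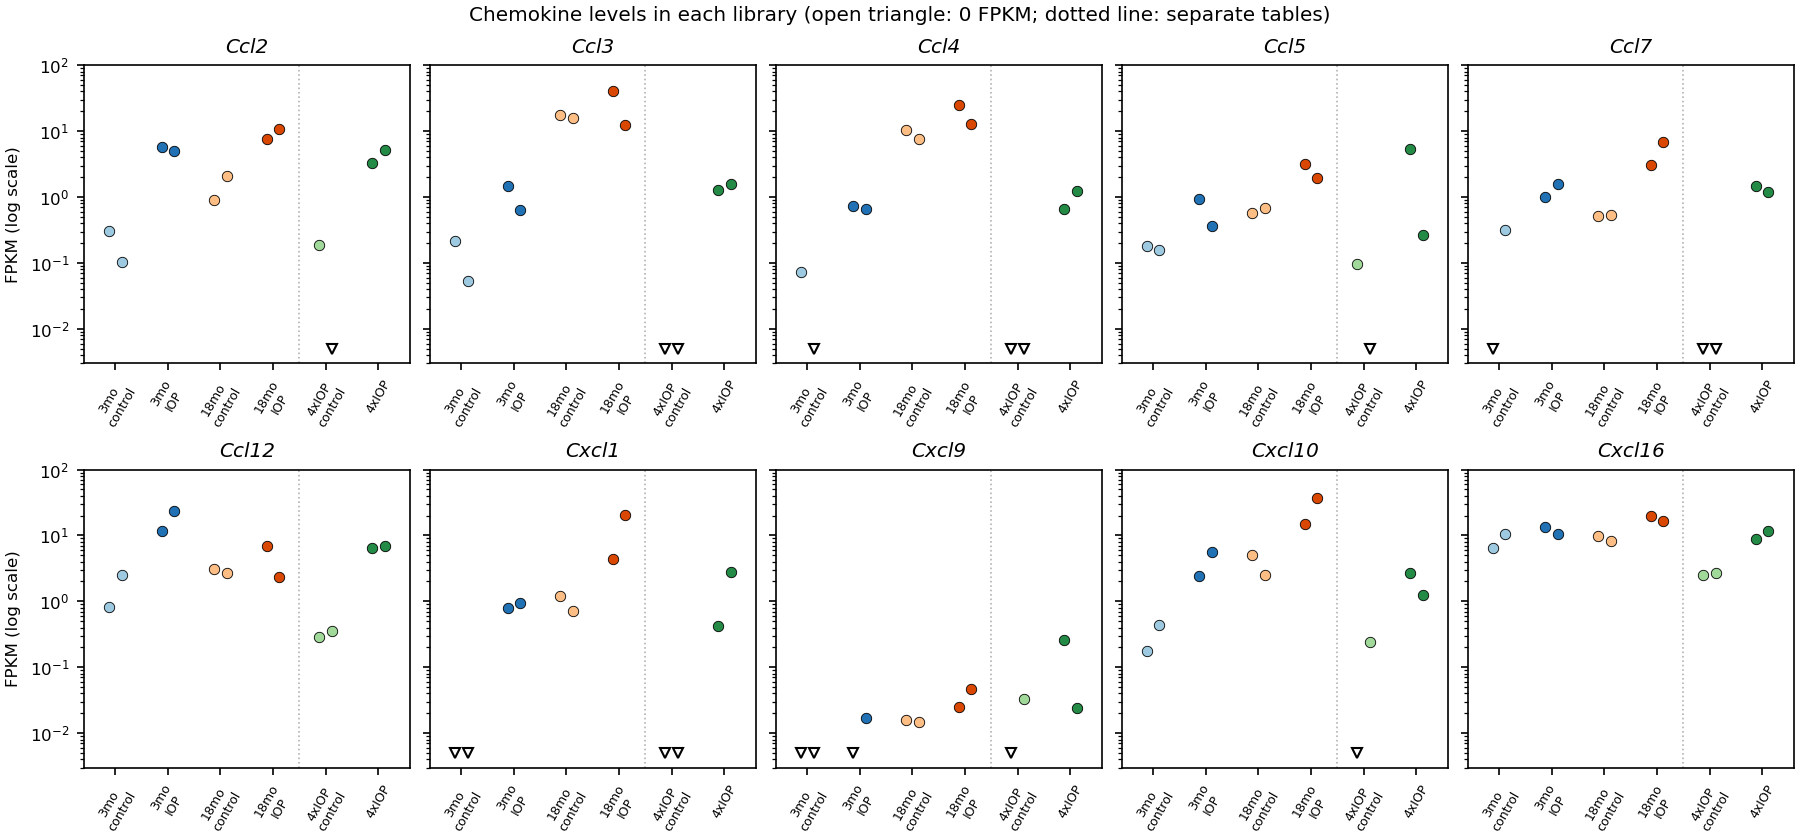
FPKM (y axis, log scale) of each chemokine in the libraries of the 6 groups (x axis), with an open triangle for a library at 0 and a dotted line between the separately normalized tables. Ccl3 and Ccl4 are high in all 18mo libraries, Ccl12 is highest in 3mo IOP, and Cxcl16 is above 2 FPKM in every library.

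The same elevation was then compared with control eyes at 18 months. No member was called by limma, although 7 of 9 had an unadjusted p under 0.05, as had 1297 of all 13731 genes, and voom on recovered reads also called 0. This comparison called 0.117% of genes higher and 0.00728% lower. The groups did not overlap for 7 members, all higher in 18mo IOP, as for 36.5% of genes (9.89% the other way), and the members' median log2 fold change was 1.41 beside 0.0891 over all genes.

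Cxcl1 went from 1.19 and 0.702 FPKM to 4.38 and 20.6 FPKM (log2 fold change 2.84 ± 0.57, adjusted p = 0.115). Cxcl10 went from 4.96 and 2.50 FPKM to 14.7 and 36.4 FPKM (2.55 ± 0.51, adjusted p = 0.115). Ccl2 went from 0.911 and 2.08 FPKM to 7.59 and 10.9 FPKM (2.33 ± 0.32, adjusted p = 0.0519). All 3 separated the groups, and 18mo IOP 2 was the higher pressured library each time.

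Ccl7 behaved likewise in its values, with 0.517 and 0.538 FPKM in control and 3.07 and 6.93 FPKM in pressured eyes (adjusted p = 0.0903). Ccl5 had 0.564 and 0.691 FPKM against 3.22 and 1.92 FPKM (adjusted p = 0.139). Cxcl16 had 9.66 and 8.21 FPKM against 19.5 and 16.4 FPKM, a 2.01-fold higher mean (adjusted p = 0.193). Ccl4 had 25.2 and 12.9 FPKM against 10.6 and 7.54 FPKM in control eyes (adjusted p = 0.280).

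Ccl3 and Ccl12 were the members whose groups overlapped. Ccl3 had 40.8 and 12.3 FPKM in 18mo IOP around the control values of 17.4 and 15.7 FPKM, and Ccl12 had 6.99 and 2.34 FPKM around 3.05 and 2.70 FPKM. The pressured old libraries differed from each other gene by gene: 18mo IOP 1 had the higher Ccl3, Ccl4, Ccl5, Ccl12 and Cxcl16, and 18mo IOP 2 the higher Ccl2, Ccl7, Cxcl1, Cxcl9 and Cxcl10. Microglial markers summed to 100 FPKM in the former and 37.4 FPKM in the latter, against 42.6 to 44.6 FPKM in 18mo control. Astrocyte markers summed to 39.4 and 98.9 FPKM in that order, against 8.441 to 9.498 FPKM in 18mo control. Of the 2 tested astrocyte markers, Gfap was called higher. Without 18mo IOP 1, 4 members were called (Cxcl1, Cxcl10, Ccl7 and Ccl2) and calls of higher genes over all genes went from 16 to 140, and the log2 fold changes of Ccl3 and Ccl12 became -0.41 and -0.24. Without 18mo IOP 2 none was called, and the log2 fold changes were 1.78 for Cxcl1, 1.91 for Cxcl10 and 1.80 for Ccl7. Leukocyte markers summed to 4.05 to 5.15 FPKM in 18mo IOP. Blood markers summed to 166 to 426 FPKM in 18mo control and 44.3 to 54.3 FPKM in 18mo IOP, lens markers to 2.80 to 4.32 and 5.79 to 19.0 FPKM, and none of either list was called. The part of these markers was not tested.

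Whether the response differed with age was tested by the interaction of pressure and age, where 0% of genes passed in either direction and 0 of 9 members did, also with voom on recovered reads for the members. By unadjusted p under 0.05, 218 genes and 1 member, Ccl12, stood out. The log2 fold change of Ccl12 was 3.10 at 3 months and 0.45 at 18 months, a difference of -2.64 ± 0.76 (unadjusted p = 0.00818, adjusted p = 1.00). For Ccl2 the difference was -0.75 ± 0.45 and for Cxcl1 1.39 ± 0.81, and neither direction can be read as an age effect.

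Pressured eyes were also compared between the ages. Here 6 of 9 members were called higher and 1 lower in 18mo IOP than in 3mo IOP, beside 10.2% and 11.6% of all genes. All 9 had groups that did not overlap, 8 higher and 1 lower in the old, as for 43.2% and 34.5% of genes. Ccl4 (log2 fold change 3.96 ± 0.31, adjusted p = 0.00118) and Ccl3 (3.94 ± 0.50, adjusted p = 0.00303) again differed most. Cxcl1 was higher by 2.90 ± 0.57 (adjusted p = 0.00903), Cxcl10 by 2.48 ± 0.51 (adjusted p = 0.00971), Ccl7 by 1.53 ± 0.38 (adjusted p = 0.0178) and Ccl5 by 1.42 ± 0.31 (adjusted p = 0.0119). The Ccl7 call was lost with a pseudocount of 0.1 (adjusted p = 0.0639), with voom (adjusted p = 0.0647), and without 3mo IOP 1, 3mo IOP 2 or 18mo IOP 2. Between these eyes 5 of 5 endothelial, 4 of 5 Müller glia and 3 of 8 tested microglial markers were also called higher in the old. All 5 ganglion cell and all 4 tested pigment epithelium markers were called lower. The part of these markers in the members' calls was not tested.

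Ccl12 was the member lower in the old pressured eyes, at 6.99 and 2.34 FPKM against 11.6 and 23.2 FPKM (log2 fold change -1.88 ± 0.54, adjusted p = 0.0261). That call was lost without 3mo IOP 1 (adjusted p = 0.0635), 3mo IOP 2 (adjusted p = 0.153) or 18mo IOP 2 (adjusted p = 0.127), and with the length trend removed the fold change was -0.82 (adjusted p = 0.209). It was also lost with no filter on low values (adjusted p = 0.0600). Cxcl1 was not called without 3mo IOP 1 (adjusted p = 0.0617) or 3mo IOP 2 (adjusted p = 0.0564), Cxcl10 without 3mo IOP 1 (adjusted p = 0.0719) and Ccl5 without 3mo IOP 2 (adjusted p = 0.0763). The 3 members still called were Ccl3, Ccl4 and Ccl5 without the former library, and Ccl3, Ccl4 and Cxcl10 without the latter. Ccl2 did not pass, with 5.72 and 5.06 FPKM against 7.59 and 10.9 FPKM (adjusted p = 0.104), but did with the length trend removed (log2 fold change 1.63, adjusted p = 0.0158), where 7 members and 1024 of all genes were called higher. Cxcl16 did not pass either, higher by 0.57 ± 0.25 on the log2 scale (adjusted p = 0.09996).

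**Figure D4:**
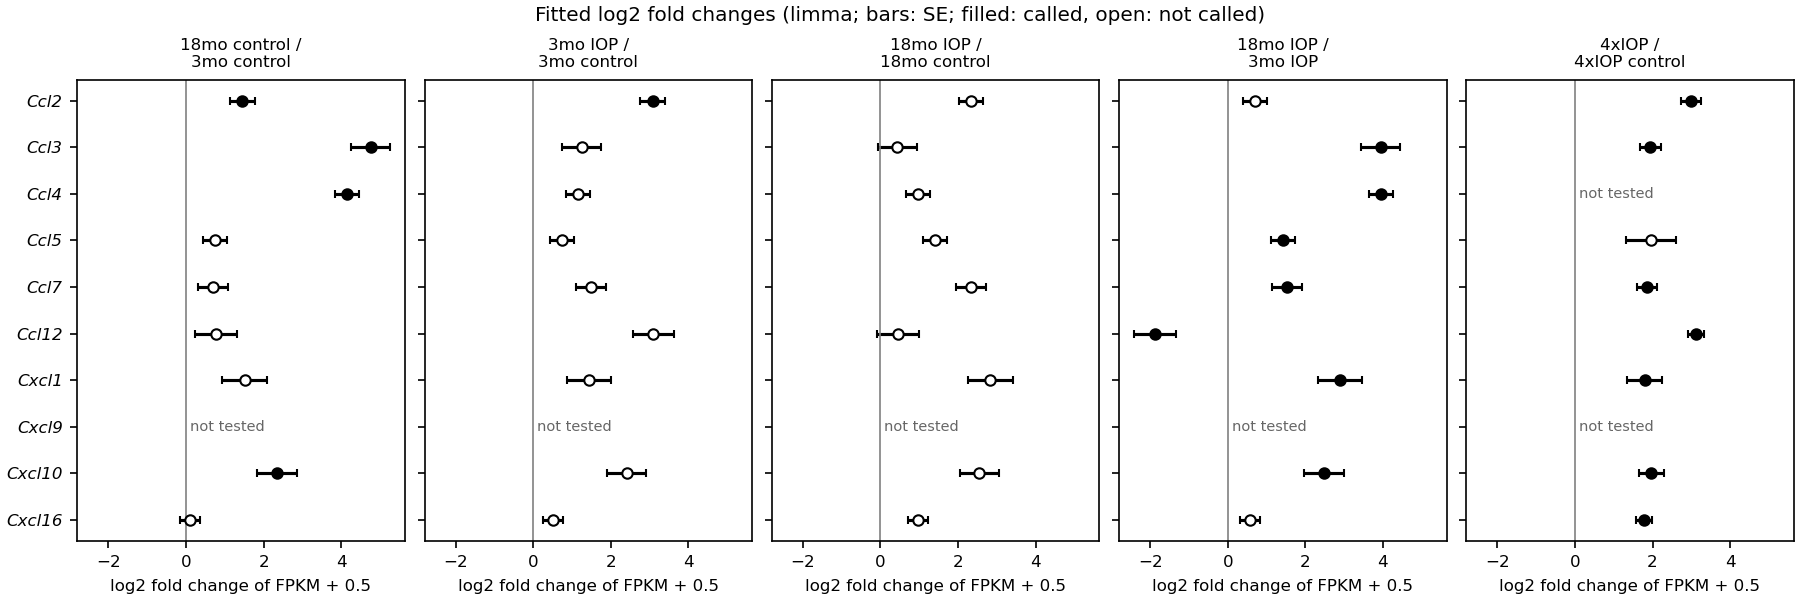
Log2 fold change of FPKM + 0.5 with its SE (x axis) for each chemokine (y axis) in the 5 comparisons of groups, with filled points for called genes and open points for others. Ccl3 and Ccl4 stand furthest right in both age panels, Ccl2 is the filled point at 3 months, and 7 points are filled in the 4xIOP panel.

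Repeated elevation was compared with its own contralateral eyes. Of 8 members tested, 7 were called higher in 4xIOP and 0 lower, where 5.45% of 13718 genes were called higher and 0.693% lower. A gene with a mean under 0.5 FPKM in 4xIOP control could pass the filter on low values only if it was higher in 4xIOP. All tested members but Cxcl16 passed in this way, so their direction was set by the filter and they could not have been called lower. All 8 had groups that did not overlap, as for 27.7% of genes (12.7% the other way), and the members' median log2 fold change was 1.96 beside 0.0956 over all genes. Ccl12 and Ccl2, ligands of the monocyte receptor Ccr2, had the highest log2 fold changes of FPKM + 0.5, an order that depends on the pseudocount where controls are near 0. Ccl12 went from 0.284 and 0.356 FPKM to 6.44 and 6.82 FPKM (log2 fold change 3.12 ± 0.20, adjusted p = 6.03e-07). Ccl2 went from 0.188 and 0 FPKM to 3.33 and 5.23 FPKM (3.00 ± 0.26, adjusted p = 7.54e-06), and Ccl7, another ligand of Ccr2, from 0 in both to 1.46 and 1.19 FPKM (1.86 ± 0.26, adjusted p = 0.000402).

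Cxcl16 rose here and was called in no other comparison. It had 2.52 and 2.73 FPKM in control eyes and 8.98 and 11.7 FPKM in 4xIOP, a 3.93-fold higher mean (log2 fold change 1.78 ± 0.21, adjusted p = 7.76e-05). Ccl3 was at 0 in both control libraries and at 1.27 and 1.60 FPKM in 4xIOP, at least 15.4-fold higher (adjusted p = 0.000274). Ccl4, under the filter on low values in this table, had 0 in both controls and 0.652 and 1.23 FPKM, at least 8.42-fold higher.

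Cxcl10 had 0 and 0.238 FPKM in controls and 2.72 and 1.25 FPKM in 4xIOP (1.97 ± 0.32, adjusted p = 0.00119), but the call was lost without 4xIOP 1 (adjusted p = 0.0602). Cxcl1 was at 0 in controls and at 0.415 and 2.79 FPKM (1.79 ± 0.45, adjusted p = 0.0256), and was not called without 4xIOP 2, where it stood at 0.87 (adjusted p = 0.0633). With the length trend removed neither Cxcl10 (adjusted p = 0.0514) nor Cxcl1 (adjusted p = 0.0862) was called. Cxcl10 was also lost with voom (log2 fold change 4.996, adjusted p = 0.0519), and Cxcl1 with size factors (1.73, adjusted p = 0.102) and with no filter (1.79, adjusted p = 0.207). Ccl5 rested on a single library: it had 5.42 FPKM in 4xIOP 1 and 0.270 FPKM in 4xIOP 2, against 0.0960 and 0 FPKM in controls, and was not called (adjusted p = 0.0960), with a log2 fold change of 0.50 without the former (adjusted p = 0.170) and 3.44 without the latter (adjusted p = 0.00612). It was also called without 4xIOP control 1 (adjusted p = 2.38e-06) or 4xIOP control 2 (adjusted p = 3.70e-05), fits with few residual degrees of freedom. Cxcl9 followed the same split, with 0.258 and 0.0240 FPKM. Between both tables no test was made, since they were normalized separately. Side by side, the log2 fold changes of FPKM + 0.5, a scale that understates changes from a low control level, after a single and after 4 elevations in young mice were 3.08 and 3.00 for Ccl2, 3.10 and 3.12 for Ccl12, 2.41 and 1.97 for Cxcl10, and 0.51 and 1.78 for Cxcl16. In the same order they were 1.25 and 1.95 for Ccl3, 0.74 and 1.97 for Ccl5, 1.48 and 1.86 for Ccl7, and 1.44 and 1.79 for Cxcl1. As ratios of mean FPKM, Ccl2 was 26.6-fold and 45.5-fold higher, Ccl12 10.6-fold and 20.7-fold, and Cxcl10 13.1-fold and 16.7-fold, so that Ccl2 and Cxcl10 have the other order on this scale.

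Cxcl9 was the least abundant member in each pressured library, but not in 4xIOP control 2, where it had 0.033 FPKM and Ccl3 was at 0. It was under the filter in both tables, had at most 0.0460 FPKM in the 8 single-elevation libraries and 45 tags over the 4xIOP pair against 4 tags over its control pair. Its close relative and neighbor Cxcl10, 18559 bases away, exceeded 1 FPKM in 8 of the 12 libraries and more than 10-fold higher than Cxcl9 in each of those.

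Most chemokine receptors were below the filter on low values. Of 23 receptor genes, including some that bind other chemokines, 5 were tested in the single-elevation table and 7 in the repeated one. After 4 elevations 5 of those 7 were called higher, among them Ccr2, which binds Ccl2, Ccl7 and Ccl12 (log2 fold change 2.99 ± 0.24, adjusted p = 3.63e-06), Ccr1, which binds Ccl3, Ccl5 and Ccl7 (2.14 ± 0.25, adjusted p = 7.69e-05), Cx3cr1 (2.13 ± 0.21, adjusted p = 2.13e-05) and Cxcr4 (1.76 ± 0.26, adjusted p = 0.000539). Ccr2, Ccr1 and Cxcr4 had control means of 0.0135, 0.0175 and 0.27 FPKM. They passed the filter only through 4xIOP and could not have been called lower. Ccr2 had 0.0140 and 0.0130 FPKM in 4xIOP control and 4.18 and 3.03 FPKM in 4xIOP, and stayed at or under 0.160 FPKM in all single-elevation libraries. Cxcr2, the receptor of Cxcl1, was at 0 in 4xIOP control and at 0.943 and 0.895 FPKM in 4xIOP, a mean under the filter and therefore not tested, and at most 0.0160 FPKM in any single-elevation library. The libraries in which Cxcl1 was highest, those of 18mo IOP, had 0.00600 and 0.0110 FPKM of Cxcr2.

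Cxcr3 was at 0 in 10 of 12 libraries, with 0.0910 FPKM in 18mo IOP 1 and 0.155 FPKM in 4xIOP 1, and Cxcr6, the receptor of Cxcl16, reached 0.1 FPKM only in 4xIOP 1 (0.566 FPKM) and 4xIOP 2. Ackr1, which binds many chemokines without signaling and is known from venules and red cells, was the receptor with the highest level. It had 21.1 and 11.7 FPKM in 3mo control and 34.8 and 55.1 FPKM in 18mo control (log2 fold change 1.45 ± 0.43, adjusted p = 0.0271). With age in untreated eyes 3 of 5 tested receptors were called higher, the others being Ccrl2 (1.99 ± 0.23, adjusted p = 0.00417) and Cx3cr1 (1.84 ± 0.37, adjusted p = 0.00831), and the same 3 were called between pressured eyes. No receptor was called after a single elevation at either age.

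**Figure D5:**
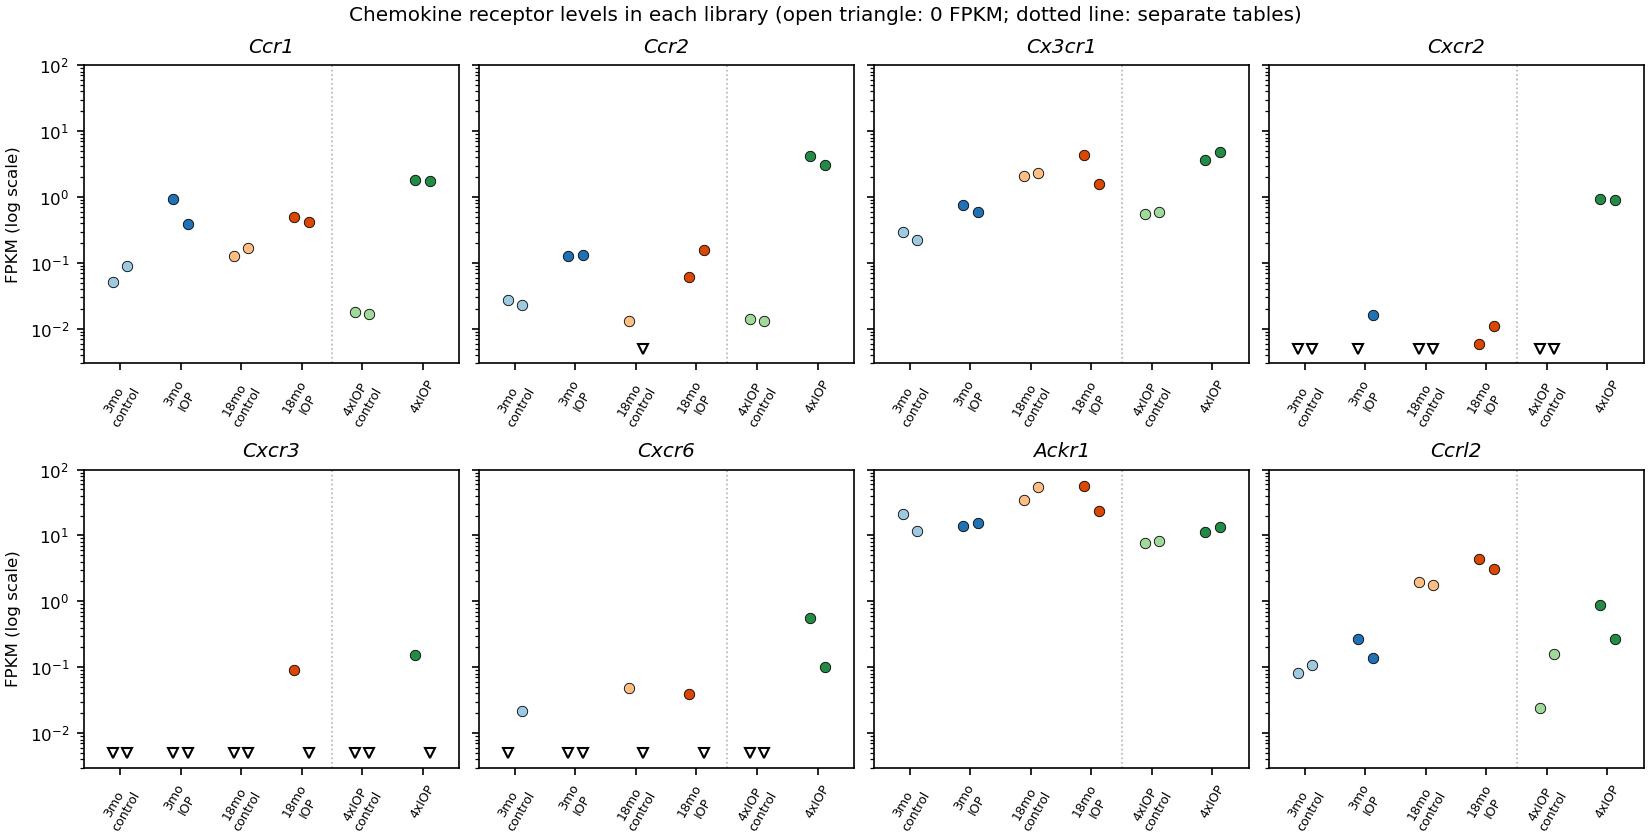
FPKM (y axis, log scale) of 8 chemokine receptors in the libraries of the 6 groups (x axis), with an open triangle for a library at 0 and a dotted line between the separately normalized tables. Ccr2 and Cxcr2 reach 4.18 and 0.943 FPKM in 4xIOP and stay at or under 0.160 FPKM elsewhere, while Ackr1 is above 7 FPKM in every library.

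The rise of Ccr2 came with other leukocyte transcripts. Leukocyte markers summed to 0.239 to 0.430 FPKM in 4xIOP control and 45.6 to 49.4 FPKM in 4xIOP, led by the neutrophil transcripts S100a8 (20.2 and 26.5 FPKM) and S100a9 (12.1 and 16.0 FPKM), and all 5 of the 10 listed markers that were tested (S100a8, S100a9, Ccr2, Ptprc and Ly6c2) were called higher. Each of these 5 had a control mean of at most 0.0945 FPKM and passed the filter only through 4xIOP, so none could have been called lower. The T cell marker Cd3e had 0.135 and 0 FPKM. Microglial markers went from 10.4 to 10.9 FPKM up to 52.2 to 56.7 FPKM, with 6 of 7 called, of which Aif1, Itgam and Tmem119 passed the filter only through 4xIOP. Lens markers also went from at most 4.46 FPKM to between 41.6 and 79.5 FPKM, astrocyte markers from 4.42 to 5.68 FPKM up to 43.9 to 54.5 FPKM (both tested markers called higher) and endothelial markers from 20.8 to 27.1 FPKM up to 48.5 to 53.2 FPKM (1 of 4 called). Most of the astrocyte sum in 4xIOP was Gfap, with a mean of 39.4 FPKM against 2.41 FPKM in 4xIOP control. Müller glia markers summed to 811 to 863 FPKM in the control and 523 to 618 FPKM in 4xIOP, with none called. Glul dominated these sums, with means of 586 and 270 FPKM. Of the 5 markers 3 were higher in 4xIOP, and the list's median log2 fold change was 0.42 beside 0.096 over all genes. The part of these cells in the 7 called chemokines was not tested.

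Among 27 other chemokines, 10 were tested in each table. Cxcl2, which shares Cxcr2 with Cxcl1, was called higher with age in untreated (log2 fold change 1.74 ± 0.48, adjusted p = 0.0216) and in pressured eyes (3.86 ± 0.48, adjusted p = 0.00302). It had 1.89 and 0.774 FPKM in 18mo control and 4.87 and 14.6 FPKM in 18mo IOP, with the higher value in the library that was also higher for Cxcl1. Cxcl12, the ligand of Cxcr4, was called in 3mo IOP (1.56 ± 0.24, adjusted p = 0.0372) and Cxcl13, a B cell attractant, was lower in the old pressured eyes (-1.32 ± 0.35, adjusted p = 0.0214). After 4 elevations 4 were called higher: Ccl6 (3.23 ± 0.35, adjusted p = 4.11e-05) and Ccl9 (1.36 ± 0.24, adjusted p = 0.00227), whose genes lie between Ccl5 and Ccl3, the platelet factor Pf4 (2.93 ± 0.32, adjusted p = 4.91e-05), and Cxcl13 (1.04 ± 0.25, adjusted p = 0.0170). Ccl6 and Pf4 passed the filter only through 4xIOP. None of the 10 was called in 18mo IOP against its control, and the median log2 fold change of these other chemokines with age in untreated eyes was -0.28, beside 1.45 for the members.

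Of 8 cytokines known to induce chemokines, 3 were tested in the single-elevation table. Il1a (log2 fold change 3.51 ± 0.40, adjusted p = 0.00376) and Tnf (2.69 ± 0.22, adjusted p = 0.00265) were called higher in 18mo control than in 3mo control, Tnf from 0 and 0.0260 FPKM to 2.91 and 2.70 FPKM. Il1b was called between pressured eyes (1.46 ± 0.25, adjusted p = 0.00674) along with both. In 4xIOP, Il1b was the sole cytokine tested and rose (3.26 ± 0.22, adjusted p = 8.38e-07), from 0 and 0.0350 FPKM to 4.72 and 4.17 FPKM. It passed the filter only through 4xIOP, so it could not have been called lower. Ifng, the classical inducer of Cxcl9, was at 0 in 11 of 12 libraries and at 0.0590 FPKM in 4xIOP 1, the library with the most Cxcl9.

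Of 13 regulators of chemokine transcription and mRNA decay, 8 were called higher in 18mo control than in 3mo control. Zfp36, which binds ATTTA-rich 3′ UTRs and speeds their decay, had the largest change, from 2.05 and 1.25 FPKM to 78.2 and 37.6 FPKM (log2 fold change 4.70 ± 0.44, adjusted p = 0.00265). The interferon regulator Irf7 followed (1.94 ± 0.20, adjusted p = 0.00301), and the next were the NF-kB subunits Rel (1.28 ± 0.20, adjusted p = 0.00564) and Rela (1.23 ± 0.22, adjusted p = 0.00704) and the interferon signal transducer Stat2 (1.11 ± 0.29, adjusted p = 0.0168). Irf7 was the only regulator called in 3mo IOP (1.69 ± 0.20, adjusted p = 0.0293), and 0 were called in 18mo IOP. Between pressured eyes 6 of 13 were called higher in the old, led by Zfp36 (5.10 ± 0.44, adjusted p = 0.00153), with Nfkb2 (1.72 ± 0.24, adjusted p = 0.00391) and Rel (1.67 ± 0.20, adjusted p = 0.00286) as NF-kB subunits and Nfkbia (1.58 ± 0.33, adjusted p = 0.0104) as their inhibitor.

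After 4 elevations 8 of 12 regulators were called higher, among them the interferon signaling factors Irf9 (log2 fold change 3.21 ± 0.25, adjusted p = 2.68e-06), Irf1 (2.54 ± 0.27, adjusted p = 3.34e-05), Irf7 (2.29 ± 0.25, adjusted p = 5.08e-05) and Stat2 (1.49 ± 0.25, adjusted p = 0.00159). Zfp36, named again after its values were seen, had 3.42 and 2.40 FPKM in 4xIOP beside 1.03 and 1.34 FPKM in its control (1.01 ± 0.22, adjusted p = 0.0115). Proteases that shed or trim chemokines, among them Adam10 and Adam17, which release Cxcl16 from the membrane, were called in no comparison (0 of 5 tested in the single-elevation table and 0 of 4 in the repeated one). Adam10 lay between 6.07 and 12.1 FPKM in all 12 libraries.

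Genes whose levels were most like each member over the 8 single-elevation libraries were named by Pearson's r of log2(FPKM + 0.5), as a description over points that share groups of age and treatment. For Ccl2 these were Shisa5 (r = 0.993) and Syngr3 (r = 0.992), for Ccl3 Slco2b1 (r = 0.995) and Kdm1a (r = 0.992), and for Ccl4 Asph (r = 0.996) and Scamp4 (r = 0.995). Cxcl10 was most like Eif5 (r = 0.985) and Naprt (r = 0.983), and Cxcl16 most like Rcn1 (r = 0.980) and Mpv17 (r = 0.973). Ccl12 had the weakest likeness to any gene, with Dnph1 (r = 0.960) and Cd52 (r = 0.945). No member was among the nearest 2 genes of another member.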

How the data were processed

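Retina of each eye was extracted in TRIzol and made into strand-specific poly(A) libraries. Per the labels and methods, the authors aligned reads with STAR 2.7.8a to mm10 and used HOMER to count tags that mapped uniquely to exons, on the minus strand and for 1 isoform per locus, with DESeq2 for their own tests. The deposited values are FPKM, in a table for the 8 single-IOP libraries and another for the 4 repeated-IOP libraries, normalized separately. Replicates were not pooled. Unique mapping may undercount genes with near-identical copies.

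Tags per library were recovered from the deposited FPKM, which came to whole reads in 100% of values checked (tolerance 0.15 reads). The main test was limma 3.58.1 (R 4.3.3), with lmFit and eBayes with a trend on log2(FPKM + 0.5), over genes whose mean reached 0.5 FPKM. A fit with a mean for each of 4 groups took the 8 single-IOP libraries, and a separate fit the other 4. Fold changes are on the log2(FPKM + 0.5) scale, which understates those of low genes. P-values were adjusted by Benjamini and Hochberg over all genes tested, and called genes had an adjusted p up to 0.05 with a log2 fold change of 1 or more in size, an interaction by the adjusted p alone. The fits were tested on simulated data. Python 3.11.15 gave levels, motif counts and exact counting intervals.

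Alternatives were pseudocounts of 0.1 and 1, no filter or a filter at 2 FPKM, median-of-ratios size factors, the length trend removed by a spline with 5 degrees of freedom, eBayes without trend, a replicate block, fits of only the compared groups, voom on recovered reads, the adjusted p alone, and each library left out. Same-numbered libraries of an eye pair did not deviate together (r = -0.275 at 3 months, -0.530 at 18 months and -0.290 for 4xIOP), so the numbers were not taken as pairs. Always named were the members and their receptors Ccr1, Ccr2, Cxcr2, Cxcr3, Cxcr6 and Ackr1; from other lists, called genes were named, at most 5 per list and comparison by size of change. Some listed genes are not reported here. Members and lists were chosen with earlier results of these data known.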

Additional observations from a re-analysis of the deposited data

How the results depend on the processing

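Of the members' fold changes, 538 values under other settings kept their direction and side of the threshold, 20 passed it newly, 11 no longer passed and 8 turned sign. On leaving out a library these counts were 350, 14, 18 and 10. With the length trend removed, 8 members were called with age in untreated eyes in place of 4, and leaving out a library gave 3 to 5. At 3 months, where 1 member was called, a pseudocount of 0.1 gave 2, no filter 0, the fit of the compared groups alone 3, voom on recovered reads 0 and the replicate block 2. Leaving out a library gave 0 to 3. At 18 months, where 0 were called, a pseudocount of 1 gave 1, and leaving out a library 0 to 4. Between pressured eyes, 7 became 3 to 7 on leaving out a library. For 4xIOP, 7 became 3 with a mean of at least 2 FPKM, where fewer members were tested, and 6 to 8 on leaving out a library, with few residual degrees of freedom. Size factors moved the summed members from 123 to 112 FPKM in 18mo IOP and from 31.5 to 30.1 FPKM in 4xIOP. Apart from the filter, the cause was not tested.

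Sign changes concerned values near 0 or the interaction. Cxcl16 with age was -0.052 with size factors and -0.059 with voom, and -0.24 to 0.46 on leaving out a library (lowest without 3mo control 1). At 18 months Ccl3 ranged from -0.41 without 18mo IOP 1 to 1.28 without 18mo IOP 2, and Ccl12 from -0.24 to 1.15. The interaction of Cxcl1 was -0.013 with a pseudocount of 0.1 and -2.71 with voom, that of Cxcl10 -0.62 and -0.80, that of Ccl7 -0.96 with voom, and that of Ccl4 0.23 with a pseudocount of 1. On leaving out a library, the interaction of Cxcl10 lay between -0.50 and 0.78, of Ccl4 between -0.65 and 0.29, and of Ccl3 between -1.66 and 0.032.

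With the replicate block, whose numbers were not taken as pairs, Ccl12 at 3 months passed (adjusted p = 0.0467), as did Ccl5 in 4xIOP, where the block left a single residual degree of freedom. Correlations under -0.1 led to a crossed pairing, chosen after seeing the data, which called 2 members at 3 months and 4 at 18 months. Over all genes and with all libraries kept, calls higher with age ranged from 1008 to 3667 around 1595 and lower from 1239 to 2630 around 1590. At 3 months they ranged from 3 to 93 around 78 higher, at 18 months from 0 to 48 around 16, between pressured eyes from 1024 to 3154 around 1407, and for 4xIOP from 405 to 939 around 748. On leaving out a library, calls of higher genes ran in that order from 610 (without 18mo control 2) to 2624 (without 3mo control 1), 0 (without 3mo control 1) to 253 (without 3mo control 2), 0 to 140 (without 18mo IOP 1), 401 (without 3mo IOP 2) to 1410, and 590 to 714. The median of all genes with age was 0.157 with FPKM and 0.0103 with size factors, and at 3 months 0.135 and -0.0521. With 2 libraries per group, folds of members at 0 to 3 tags over a control pair are poorly bounded (Ccl4, Cxcl1 and Cxcl9 in 3mo control, and Ccl3, Ccl4, Ccl5, Ccl7 and Cxcl1 in 4xIOP control).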
